A study of Mus musculus with 12 samples.

Results

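Toll-like receptors are sensors of microbial and self molecules, and 9 of their genes, Tlr1 to Tlr9, were measured together with Myd88, the adaptor that most of them share. All 10 named genes were found in the deposited log2 table of 750 genes, by symbol. The measurements came from subcutaneous tumours grown from mT3-2D, a line of the murine KPC model of pancreatic cancer. Of 12 samples, 5 were tumours from hosts labelled WT and immunocompetent, 5 were tumours from hosts labelled SCID and immunodeficient, and 2 were the cultured line itself. Mice with the SCID defect make no mature T or B cells and keep myeloid cells, and every tumour shared the same implanted line. The labels give no host strain, age, sex or SCID allele, and do not say whether each tumour came from a separate animal. The titles of WT tumours 3, 4 and 5 share a number, as do those of SCID tumours 1 and 2 and of SCID tumours 3 and 4, while WT tumours 2 and 3 carry different ones. What that number stands for is not stated. Each tumour is 1 bulk RNA sample of a single implanted line. The p-values therefore measure the spread between these samples, which may be partly technical.

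These receptors fall into a group at the cell surface, which binds lipids and proteins of microbes, and a group inside endosomes, which binds nucleic acids. Most of them recruit Myd88, which passes the signal through Irak kinases and Traf6 to NF-kappaB, while Tlr3 uses Ticam1 (TRIF) instead. In tissues they are best known from macrophages, dendritic cells and neutrophils, although epithelial and stromal cells carry some of them. In a whole tumour, fewer cells of a type and less RNA per cell cannot be told apart.

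Each value below is the log2 of a normalized probe count, so values are compared between samples for one gene and not between genes. The total recovered was 368925 to 558445 probe counts per sample. The probe counts of WT tumours 2 and 3 were nearly the same (chi-square over degrees of freedom 1.20, while the other 19 within-group tumour pairs gave at least 17.1). Their mean was used as 1 sample, so that n was 4 for WT and 5 for SCID. The 2 line samples, titled as replicates, were also close (1.64) but were kept as 2 samples. The p-values against the line count them as independent, and their spread may be largely technical. A background level was set at 39 counts, the 95th percentile of 29 lymphocyte genes (T and B cell) in the line, which is 4.76 to 5.72 on the log2 scale depending on the sample. Leukocyte markers were at background in the line (0 of 5 above it), and all 4 epithelial markers were above it in every sample. Of the 17 T cell markers, 0 were above background in any SCID tumour and 7 were in at least 1 WT tumour. B cell genes other than Blnk were at background in all samples. Macrophage and monocyte markers were present in every tumour, 11 of 12 of them above background, with Marco at background.

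The start regions of 4 members are shown. Tlr8 and Tlr1 were taken for their difference from the line, and Myd88 as the shared adaptor. Tlr3 was taken for the largest difference between hosts among the members on the deposited scale, which was not called. Windows from RefSeq (assembly GRCm38.p6) span 250 bases before to 50 after each start and matched 8 of the 10 genes by symbol. All 4 lie on the minus strand and are written 5′ to 3′, with capitals marking matches to the motifs searched. Tlr8 lies at chrX:167264280-167264579, Tlr1 at chr5:64933509-64933808, Tlr3 at chr8:45410331-45410630 and Myd88 at chr9:119339969-119340268.
Tlr8: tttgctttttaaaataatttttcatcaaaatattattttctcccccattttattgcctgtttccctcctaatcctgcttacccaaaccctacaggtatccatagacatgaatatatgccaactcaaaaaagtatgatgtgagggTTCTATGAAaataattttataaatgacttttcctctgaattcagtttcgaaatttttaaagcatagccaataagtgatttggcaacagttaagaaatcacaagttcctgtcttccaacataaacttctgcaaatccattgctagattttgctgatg
Tlr1: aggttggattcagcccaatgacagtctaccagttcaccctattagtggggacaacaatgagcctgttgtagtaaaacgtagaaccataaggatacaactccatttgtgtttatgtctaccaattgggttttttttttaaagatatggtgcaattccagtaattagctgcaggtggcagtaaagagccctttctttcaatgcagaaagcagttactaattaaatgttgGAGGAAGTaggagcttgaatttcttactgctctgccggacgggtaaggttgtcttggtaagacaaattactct
Tlr3: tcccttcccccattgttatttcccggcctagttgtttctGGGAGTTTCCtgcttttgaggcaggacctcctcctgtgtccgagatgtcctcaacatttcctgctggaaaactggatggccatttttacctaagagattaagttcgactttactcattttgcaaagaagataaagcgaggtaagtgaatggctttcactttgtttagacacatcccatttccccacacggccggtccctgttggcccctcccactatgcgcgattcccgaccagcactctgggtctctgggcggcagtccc
Myd88: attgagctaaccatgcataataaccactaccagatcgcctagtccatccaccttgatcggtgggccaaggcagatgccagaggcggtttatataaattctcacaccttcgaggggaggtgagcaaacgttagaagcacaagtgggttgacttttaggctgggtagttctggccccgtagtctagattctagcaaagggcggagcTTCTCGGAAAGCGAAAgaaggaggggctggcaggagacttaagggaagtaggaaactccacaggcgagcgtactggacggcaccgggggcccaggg
The 5 motifs were searched on both strands, each the letters of a known class of site, and the share of all 32851 windows that hold each is given. GAGGAAGT, read by the myeloid factor PU.1, was in 3.20% of windows and matched the printed Tlr1 window at position -23. The interferon-stimulated response element, taken as a pair of GAAA with 2 unspecified bases between, was in 3.44% and matched Myd88 at -40. TTCNNNGAA, the STAT site GAS, was in 8.30% and matched Tlr8 at -106, a second Tlr1 window at -228 and Myd88 at -46, where it overlaps the interferon element. The kappaB site, taken as GGGA and TTCC with 2 unspecified bases between, was in 1.47% and matched Tlr3 at -211. TGANTCA, the AP-1 site, was in 7.81% and among the members matched Tlr9 at -58. Tlr6 held interferon element and GAS matches and Tlr9 a PU.1 match, and Tlr2 and Tlr5 held no match in their windows. These are letter matches in 1 window each or a few, not measured binding.

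Tlr8 stood farthest above the cultured line of the 10 genes. Its human counterpart senses single-stranded RNA in endosomes of monocytes and macrophages. The line samples gave 2.84 and 3.64, which are 10 and 18 probe counts and at background. WT tumours 1 to 5 gave 6.87, 6.46, 6.36, 6.83 and 6.72, and SCID tumours 1 to 5 gave 5.40, 6.23, 6.07, 6.07 and 6.65. Every tumour lay far above both line samples, and SCID tumour 1, at 39 counts, was the only tumour that did not exceed background. Over the WT tumours the level was 6.71 ± 0.21 (SD, n = 4), at least 3.80-fold higher than the line on the deposited scale (limma adjusted p = 3.60e-06). Over the SCID tumours it was 6.08 ± 0.45 (SD, n = 5), at least 2.47-fold higher on that scale (limma adjusted p = 1.86e-05). Both bounds depend on the scaling and were lower under the alternatives below.

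Tlr1, which pairs with Tlr2 at the cell surface to bind triacylated lipopeptides, came next. It gave 3.33 and 3.47 in the line, also at background. The WT tumours gave 6.56, 5.86, 5.83, 6.06 and 6.26 and the SCID tumours 5.47, 5.59, 5.27, 5.71 and 6.39. All tumours were above background and above the line, and the WT and SCID values overlapped through SCID tumour 5. The means were 6.18 ± 0.30 (SD, n = 4) in WT and 5.68 ± 0.42 (SD, n = 5) in SCID. On the deposited scale these were at least 2.64-fold and at least 1.87-fold higher than the line (limma adjusted p = 9.43e-06 and 4.89e-05).

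**Figure D1:**
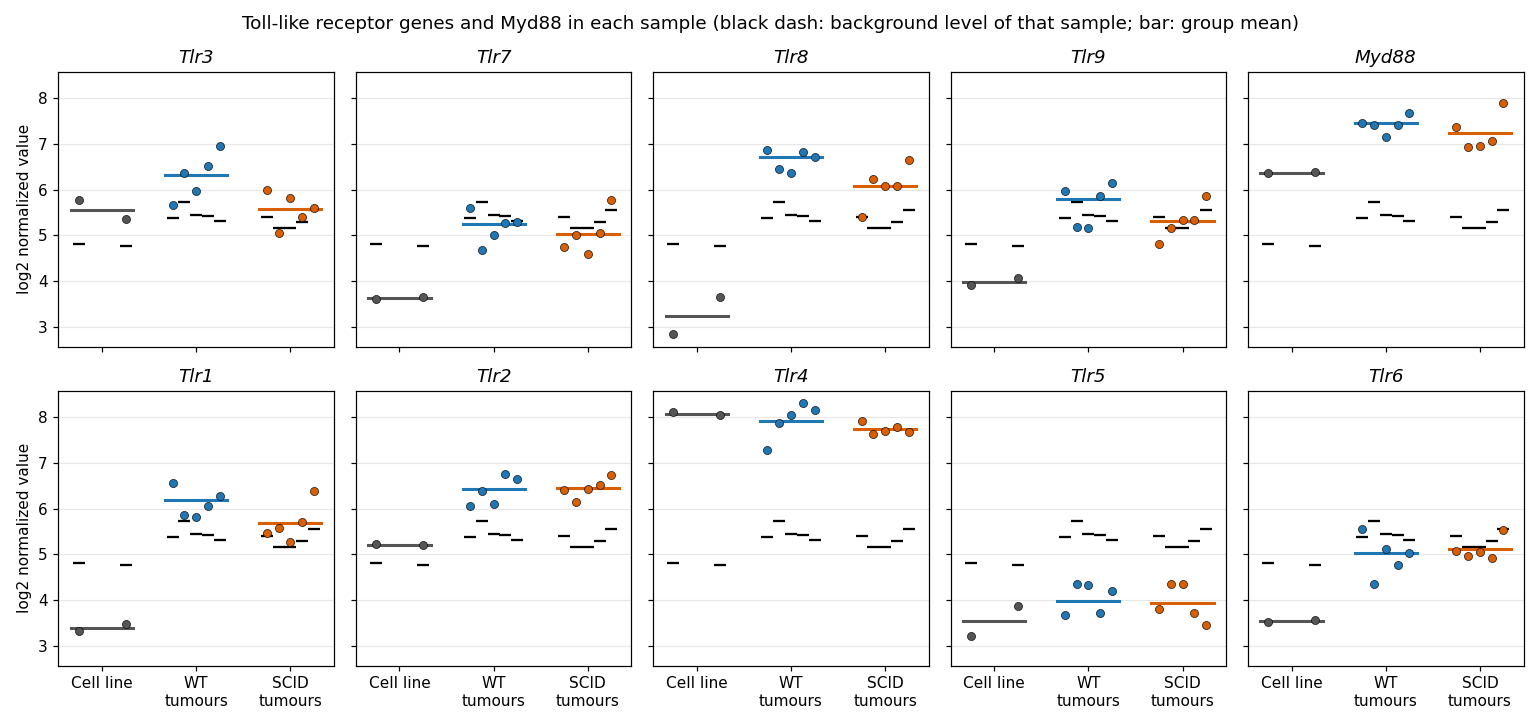
Log2 normalized value (vertical axis) of each of the 10 genes in the line, WT and SCID samples (horizontal axis), 1 point per sample, with a bar at the group mean and a black dash at that sample's background level. Tlr8 and Tlr1 sit at 3.64 or less in the line and at 5.27 or more in every tumour, Tlr4 runs from 7.28 to 8.30, and Tlr5 lies under the dashes in all 12 samples.

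Across all 10 members, 7 were called higher than the line in the WT tumours and the same number in the SCID tumours on the deposited scale. The share of all genes called higher was 67.1% for WT and 51.6% for SCID, so the members' count lay near the background in WT. Of the 7, Tlr6 and Tlr7 were at background in most tumours too. Called lower were 0 members, against 2.67% and 2.8% of all genes. The median of all genes itself stood 1.21 log2 units above the line in WT tumours and 0.81 in SCID tumours, and the members' medians were 1.35 and 1.28. In 7 members the tumour and line groups did not overlap and the tumours were higher, where 73.5% of all genes did so for WT and 60.7% for SCID. The background level was itself 4.80 and 4.76 in the line and 5.17 to 5.72 in the tumours. Equal counts at background therefore gave higher values in the tumours on this scale, which bears on Tlr6 and Tlr7. In the other direction the groups were apart for 0 members in WT and 1, Tlr4, in SCID, against 4.93% of all genes in each. Both comparisons share the 2 line samples.

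That panel-wide shift makes most of these directions depend on how samples are scaled. Under TMM factors the median of all genes was 0.17 above the line in WT tumours and 0.09 in SCID tumours, and 3 members were called higher and 1 lower in each comparison. Of all 750 genes, 249 were then higher and 148 lower in WT, and 212 and 119 in SCID. Scaling every sample to its panel median put the median gene 1.40 and 1.20 below the line, with 1 member called higher in each and 8 and 6 called lower. Of all genes, 106 (WT) and 101 (SCID) were then higher, and 483 and 481 lower. The median gene of the line samples, at 4.04 and 4.12, was itself below their background levels, whereas in the tumours it was 5.80 to 6.95. Tlr8 was the member called higher under all 3 scalings, by 2.43 (WT) and 2.13 (SCID) under TMM factors and by 0.86 and 0.84 under the panel median (limma adjusted p = 0.0138 for each of the last pair). Under the panel median no lower bound on its fold remained, since the line values lay below background. Tlr1 was called higher as deposited and under TMM factors (1.75 and 1.57). Against background those TMM differences were at least 1.29-fold (WT) and at least 1.14-fold (SCID). Under the panel median Tlr1 differed by 0.18 and 0.28 and was not called.

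**Figure D2:**
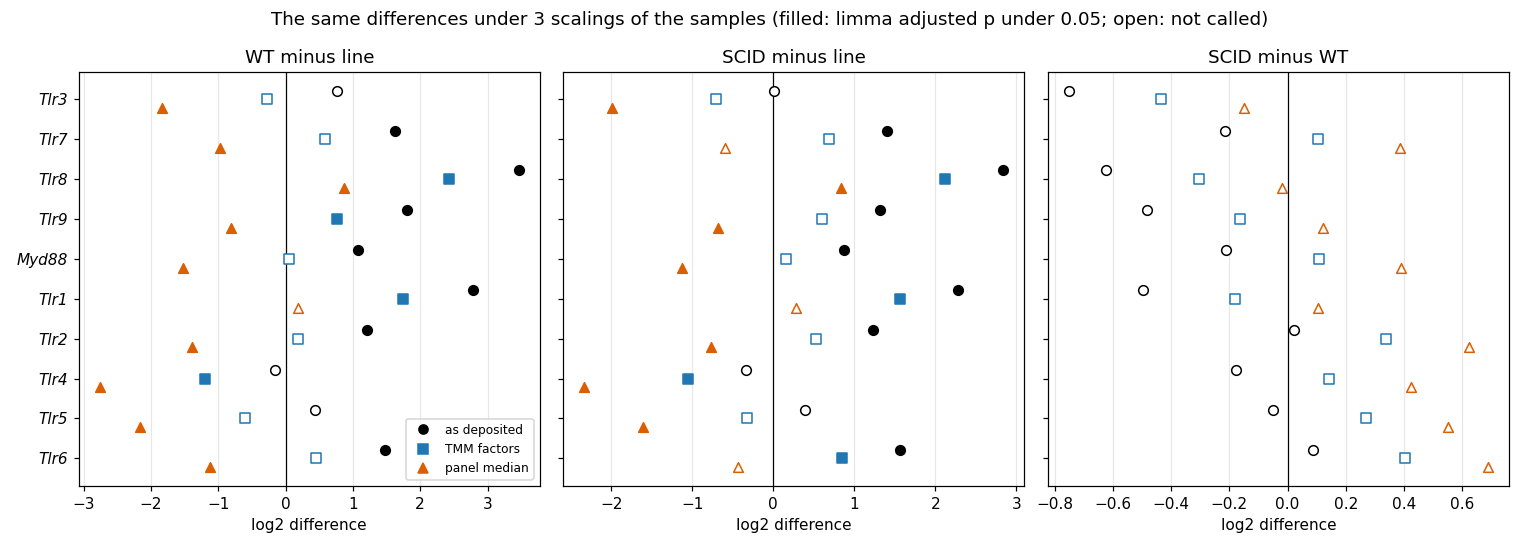
Log2 difference (horizontal axis) of each of the 10 genes (vertical axis) in the 3 comparisons, with circles for the deposited scale, squares for TMM factors and triangles for panel-median scaling, filled where the limma adjusted p is under 0.05. Tlr8 against the line is filled and right of zero under all 3 scalings, Tlr4 moves from near zero to below it, and most other genes cross zero.

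Tlr4, the receptor for lipopolysaccharide, was well detected in the cultured line and was not called different from it in either tumour group on the deposited scale. It gave 8.10 and 8.05 in the line, which are 384 and 381 counts. WT tumours gave 7.28, 7.87, 8.04, 8.30 and 8.14, on both sides of the line. The SCID tumours were close together at 7.92, 7.63, 7.70, 7.79 and 7.68, all below both line samples. The differences from the line were -0.16 in WT (95% interval -0.72 to 0.41, limma adjusted p = 0.597) and -0.33 in SCID (95% interval -0.88 to 0.21, limma adjusted p = 0.270). Under TMM factors it was called lower in both, by -1.19 and -1.05 (limma adjusted p = 0.00213 and 0.00520), and under the panel median by -2.76 and -2.33. WT tumour 1, the lowest, also had the lowest summed epithelial marker signal of the WT tumours (7445, against up to 19735) and the highest summed fibroblast marker signal (60299), and their part in the Tlr4 value was not tested.

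Setting each member against Tlr4 within a sample takes the scaling factor out. On that ratio, 7 of the other 9 members were higher in each of 9 tumours than in both line samples, as were 67.8% of all other genes. Of these members, Tlr1, Tlr6, Tlr7, Tlr8 and Tlr9 were at background in the line, and Tlr6 and Tlr7 in most tumours too. Tlr4 had 384 and 381 counts in the line and 147 to 288 in the tumours. Unchanged background counts would therefore also give a higher ratio. For Tlr8 the log2 ratio to Tlr4 was -4.83 on average in the line and -2.52 to -0.42 in the tumours. Those of Tlr3 and Tlr5 overlapped between line and tumours. A ratio of this kind shows unequal change of 2 genes and does not say which of them changed.

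Tlr3, the endosomal receptor of double-stranded RNA and the one that does not signal through Myd88, was also present in the line. Its line values were 5.77 and 5.36, or 76 and 59 counts, above background. The WT tumours gave 5.67, 6.37, 5.96, 6.52 and 6.94 and the SCID tumours 5.99, 5.06, 5.81, 5.40 and 5.60. SCID tumours lay around the line values and WT tumours mostly above them, with WT tumours 1 and 3 inside the SCID range. On the deposited scale it differed from the line by 0.76 in WT (limma adjusted p = 0.0701) and 0.01 in SCID (95% interval -0.73 to 0.75). Under TMM factors these became -0.27 and -0.71, neither called, and under the panel median -1.84 and -1.99, both called lower.

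Tlr9, the receptor of unmethylated CpG DNA, was at background in the line at 3.91 and 4.06. It gave 5.97, 5.19, 5.15, 5.86 and 6.14 in the WT tumours and 4.81, 5.17, 5.34, 5.33 and 5.86 in the SCID tumours. All tumours lay above the line, but only 3 of 4 WT and 3 of 5 SCID samples passed background. As deposited it was at least 2.00-fold higher in WT (limma adjusted p = 0.000376), and the SCID difference was also called (limma adjusted p = 0.00342) with a mean close to background (5.30). Under TMM factors the WT difference was 0.77 (limma adjusted p = 0.0310), with no lower bound on its fold left. The SCID difference, 0.60, was not called (limma adjusted p = 0.0828), and under the panel median both turned (-0.80 and -0.68). Tlr7, which binds single-stranded RNA, gave 17 and 18 counts in the line and 19 to 46 in the tumours, with 1 tumour of each group above background. The deposited differences were called (limma adjusted p = 0.000735 and 0.00222), but nearly all values behind them lay at background and no fold is given. Under TMM factors they were 0.59 and 0.69 (limma adjusted p = 0.0921 and 0.0529), and under the panel median -0.98, called lower, and -0.59, not called.

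Tlr2, the surface receptor of bacterial lipoproteins, was above background in every sample. It was 5.22 and 5.20 in the line, 6.06, 6.39, 6.11, 6.75 and 6.65 in the WT tumours, and 6.42, 6.13, 6.44, 6.51 and 6.74 in the SCID tumours. The lowest tumour was 6.06, above both line samples, and the 2 tumour groups covered nearly the same range. The differences from the line were 1.22 (WT, SE 0.24) and 1.24 (SCID, SE 0.23), with limma adjusted p = 0.000809 and 0.000833, on the deposited scale. Under TMM factors they were 0.18 and 0.52 and not called (limma adjusted p = 0.497 and 0.0577), and they became -1.39 and -0.76 under the panel median. Tlr6, the other partner of Tlr2, which serves diacylated lipopeptides, gave 16 and 17 counts in the line and 15 to 44 in the tumours. It passed background in 1 WT sample and in 0 SCID tumours, so no fold is given, although both deposited differences were called (limma adjusted p = 0.000376 and 0.000272). Under TMM factors the Tlr6 differences were 0.45 (limma adjusted p = 0.162) and 0.85 (limma adjusted p = 0.0153). The SCID difference was thus called with every SCID tumour at background. Under the panel median they were -1.12, called lower, and -0.44, not called. Tlr5, the flagellin receptor, gave 9 to 22 counts and was at background in all 12 samples, which does not show that its RNA was absent. With values raised to background it was called higher in WT than in the line (0.64, limma adjusted p = 0.00124), as were 607 of 750 genes. Its raised values were only the background levels, which were higher in the tumours.

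Myd88, the adaptor, was above background in all samples. It gave 6.37 and 6.38 in the line, 7.45, 7.40, 7.15, 7.42 and 7.68 in the WT tumours, and 7.37, 6.94, 6.95, 7.06 and 7.90 in the SCID tumours. The lowest tumour, SCID tumour 2 at 6.94, lay above both line samples. The mean was 7.46 ± 0.17 (SD, n = 4) in WT and 7.24 ± 0.41 (SD, n = 5) in SCID, which is 1.08 (SE 0.27) and 0.87 (SE 0.26) above the line on the deposited log2 scale (limma adjusted p = 0.00385 and 0.0146). The SCID call was lost without either line sample (limma adjusted p = 0.0824 and 0.0748), and neither group was called under TMM factors (0.05 and 0.16, limma adjusted p = 0.876 and 0.612). Under the panel median the differences were -1.52 and -1.13.

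**Figure D3:**
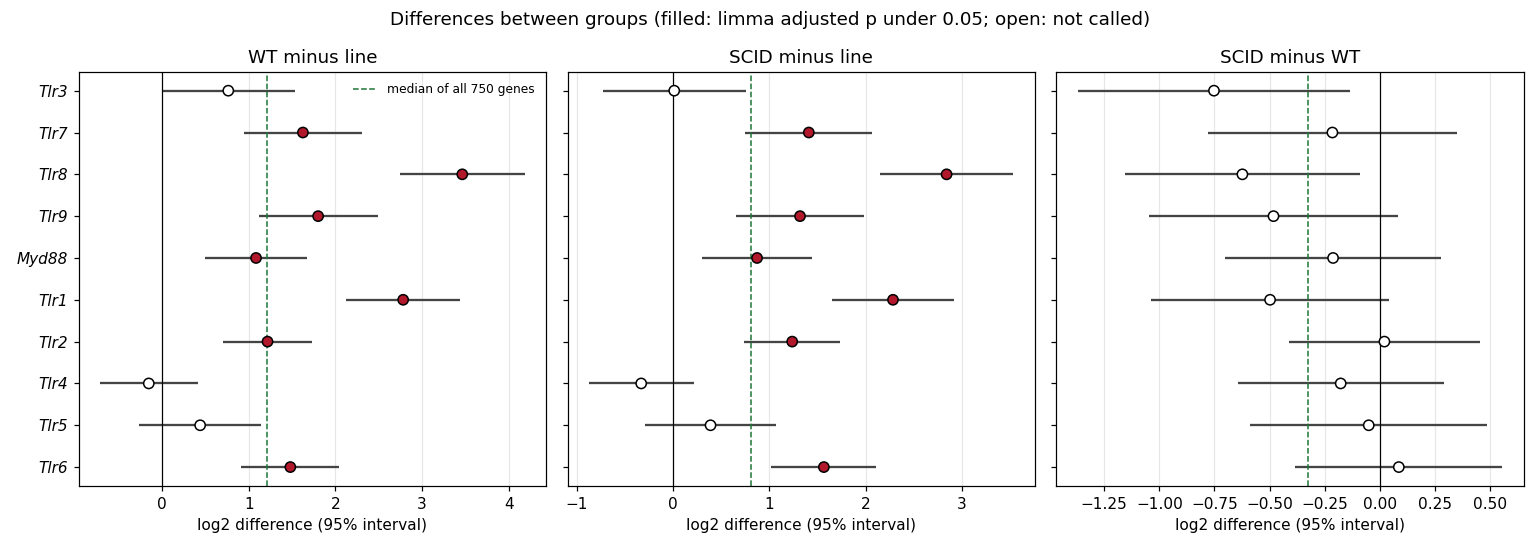
Log2 differences (horizontal axis, deposited scale) of the 10 genes (vertical axis) with 95% intervals in the 3 comparisons, filled where the limma adjusted p is under 0.05, and a dashed line at the median of all 750 genes. Tlr8 (3.46 and 2.84) and Tlr1 (2.78 and 2.28) lie farthest right of that median against the line, and no gene is filled for SCID against WT. Under panel-median scaling Tlr2, Tlr6, Tlr7, Tlr9 and Myd88 fall left of zero against the line.

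Between hosts, the question was whether tumours of the same line differ in these genes when the host lacks T and B cells. The test called 0 of 10 members, whereas 15.9% of all genes were called, 118 lower (15.7%) and 1 higher (0.133%) in SCID. At an unadjusted limma p under 0.05 the counts were 2 of 10 members and 238 of 750 genes. In 0 members were the groups free of overlap, against 16.0% of all genes. The median of all genes was -0.33 and the median of the members -0.21.

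On the deposited scale Tlr3 and Tlr8 had the largest differences among the members, both in the direction of lower values in SCID tumours. Tlr3 was 6.32 ± 0.54 (SD, n = 4) in WT and 5.57 ± 0.37 (SD, n = 5) in SCID, a difference of -0.75 with a 95% interval of -1.37 to -0.13 (limma adjusted p = 0.0914). Tlr8 differed by -0.62 with a 95% interval of -1.15 to -0.09 (limma adjusted p = 0.100). An exact permutation test over the 126 relabellings of these 9 samples gave a two-sided p of 0.0476 for Tlr3 and 0.0317 for Tlr8, unadjusted, where the smallest it can give is 0.0079. Both differences were smaller under TMM factors (-0.43 and -0.31) and under the panel median (-0.15 and -0.02).

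Whether any member was called depended on single tumours. Without SCID tumour 5, Tlr8 and Tlr1 passed the threshold (limma adjusted p = 0.0357 and 0.0371), and without WT tumour 1 Tlr3 did (limma adjusted p = 0.0314). Of all 750 genes, 156 were lower and 2 higher without SCID tumour 5, and 138 and 3 without WT tumour 1. With all samples these were 118 and 1. SCID tumour 5 was the highest SCID sample for 7 of the 10 members. It also had the highest summed signal of its group for leukocyte markers (672, the lowest being SCID tumour 1 at 338) and for macrophage and monocyte markers (7361, the lowest again SCID tumour 1 at 3312). In WT tumours those sums were 704 to 1160 and 9897 to 11402, and in the line 53.5 to 59.5 and 157 to 161. SCID tumour 1 was the lowest SCID tumour for Tlr8 and Tlr9 but the highest for Tlr3 and Tlr4. The rise in SCID tumour 5 was not limited to leukocyte and macrophage lists. It was also the highest SCID tumour for dendritic cell, endothelial (1600) and fibroblast (56978) marker sums. Its median over all genes was 6.46, against 5.80 to 6.15 in the other SCID tumours. Its T and B cell sums were the highest too, but those markers other than Blnk were at background in SCID tumours. The background level itself was highest in SCID tumour 5 among the SCID tumours (5.56). That tumour was the lowest of its group for neutrophil (234) and NK cell (627) marker sums. The epithelial sum was highest in SCID tumour 1.

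Taking the mean of the 12 macrophage and monocyte markers out of each sample left a Tlr8 difference of -0.13 (95% interval -0.57 to 0.31) and -0.01 for Tlr1 and 0.01 for Tlr9. This step moves every gene by the same amount, and the median of all genes went from -0.33 to 0.16, so the place of Tlr8 among the genes was unchanged. On that footing 0 of 10 members were called, against 3.2% of all genes, and 1 had an unadjusted limma p under 0.05, Tlr6 at 0.58 (95% interval 0.04 to 1.12, adjusted p = 0.232). Against the mean of the 5 leukocyte markers, the members ran from -0.05 (Tlr3) to 0.79 (Tlr6), with 0 called and 2 under the unadjusted 0.05, where 11.1% of all genes were called and their median was 0.37. How much of the Tlr8 difference comes from the number of such cells was not tested.

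The remaining members gave intervals that include zero. Tlr1 differed by -0.50 (95% interval -1.04 to 0.04), Tlr9 by -0.48 (-1.05 to 0.08) and Tlr7 by -0.21 (-0.78 to 0.35), and all 3 were positive under the panel median (0.11, 0.12 and 0.39). Myd88 differed by -0.21 (-0.70 to 0.28) and Tlr4 by -0.18 (-0.65 to 0.29), both positive under TMM factors (0.11 and 0.14). Tlr2, at 0.02 (-0.41 to 0.45), and Tlr6, at 0.09 (-0.38 to 0.56), had differences above zero as deposited. Under TMM factors these were 0.34 and 0.40, and under the panel median, where 8 of 10 members were positive, they were the largest at 0.62 and 0.69 (limma adjusted p = 0.0551 and 0.0668). Equality between hosts was not shown for any of them.

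Other genes of the pathway were counted from lists. These held receptor helpers, signalling adaptors and kinases, transcription factors, inflammatory targets, and the other receptors that use Myd88 together with the cytokine Il18. For comparison, all 750 genes gave 249 higher and 148 lower (WT) and 212 and 119 (SCID) against the line under TMM factors. Under the panel median all genes gave 106 and 483 (WT) and 101 and 481 (SCID). The helper list is broad and not limited to proteins that act on the receptors. Among its 10 measured genes, 3 were lower in SCID tumours on the deposited scale, where 15.7% of all genes were. They were Bst2 (-1.16, limma adjusted p = 0.00744), an interferon-induced membrane protein, Cd180 (-0.97, adjusted p = 0.0325), a Toll-like receptor relative of B cells and macrophages, and Btk (-0.92, adjusted p = 0.00382), a kinase of B cells and myeloid cells. Bst2 and Btk were also called lower under TMM factors, and none of the 3 under the panel median. Against the line, 7 helpers were higher in WT and 6 in SCID as deposited, beside the 67.1% and 51.6% of all genes. Under TMM factors the helpers gave 5 higher and 2 lower in each, and under the panel median 1 higher and 5 lower in WT and 2 higher and 4 lower in SCID. Cd14, the lipopolysaccharide co-receptor of Tlr4, was 9.21 in the line and not called in any comparison on the deposited scale (9.09 ± 0.78 in WT, 8.80 ± 0.62 in SCID).

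Of 30 adaptors, kinases and brakes, 27 were not called between hosts and 3 were lower in SCID as deposited. That count was 1 without WT tumour 4, WT tumour 5, SCID tumour 1 or SCID tumour 2, each left out alone, and the panel median gave 3 higher and 0 lower. These were Tnfaip3 (-0.85, limma adjusted p = 0.0325), the deubiquitinase A20 that restrains NF-kappaB, Ikbke (-0.81, adjusted p = 0.00948), a kinase of interferon regulatory factors, and Tirap (-0.53, adjusted p = 0.0423), the adaptor that brings Myd88 to Tlr2 and Tlr4. The panel median turned the sign for Tirap (0.07), and 0 of the 30 were called under TMM factors. Against the line 9 were higher in WT and 4 in SCID, with a list median of 0.32 and 0.16 log2 units, below the medians of 1.21 and 0.81 over all genes. Under TMM factors the calls against the line turned to 1 higher and 19 lower in WT and 1 higher and 15 lower in SCID. Of all 750 genes, 148 (WT) and 119 (SCID) were then lower. Mapk3, a kinase that acts downstream of the receptors, was the most counted of the list and differed between hosts by -0.02, which was not called.

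Among 14 transcription factors 1 was lower in SCID tumours, Irf1 (-1.07, limma adjusted p = 0.0194), an interferon regulatory factor. Its level was 8.01 in the line, 10.05 ± 0.52 in WT and 8.98 ± 0.27 in SCID, so that it was called higher than the line in both groups as deposited, but lower than it under the panel median in SCID. Inflammatory targets numbered 24, and 2 were lower in SCID, Tnf (-1.19, limma adjusted p = 0.0251), the cytokine, and Nos2 (-0.99, adjusted p = 0.0325), the inducible nitric oxide synthase. Tnf was above background in 1 of 5 SCID tumours, and Nos2 in 1 WT sample and 0 SCID tumours, and 0 of the 24 targets were called with values raised to background. Neither Irf1, Tnf nor Nos2 was called under TMM factors (-0.75, -0.87 and -0.67), and the count of targets called lower ran from 0 (leaving out SCID tumour 2, WT tumour 4 or WT tumour 5) up to 4 (leaving out WT tumour 1) and 5 (leaving out SCID tumour 5). Against the line, 15 targets were higher and 1 lower in WT, and 9 higher and 1 lower in SCID, as deposited, near the shares of all genes (67.1% and 51.6% higher). Under TMM factors these were 6 and 1 in WT and 6 and 2 in SCID, and the panel median turned them to 1 higher and 15 lower and 2 higher and 14 lower. Of the 24 targets, 16 were above background in at least 1 WT tumour and 14 in at least 1 SCID tumour. Il6, Il12a, Il12b, Il23a, Il10, Cxcl1, Ccl4 and Ifnb1 were at background in every tumour. Il1rn, the interleukin-1 receptor antagonist, was 11.56 in the line and was lower in both tumour groups under each scaling, by -1.55 (WT) and -1.91 (SCID) as deposited (limma adjusted p = 0.00841 and 0.00289).

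**Figure D4:**
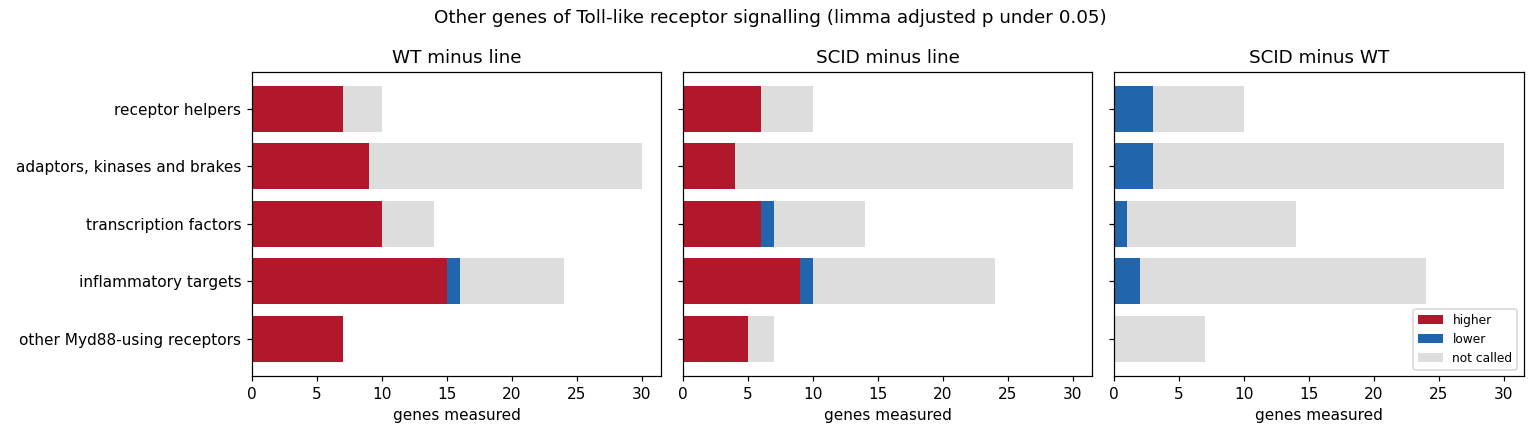
Number of measured genes in each of 5 pathway lists (horizontal axis), divided into called higher, called lower and not called by the limma adjusted p under 0.05 on the deposited scale, in the 3 comparisons. For SCID against WT all calls are blue (lower), 3, 3, 1, 2 and 0 genes from the helpers to the other Myd88-using receptors. The rest of each bar is grey (not called). Most calls against the line are red (higher) on this scale. Under TMM factors, which are not drawn, most calls among the 30 adaptors, kinases and brakes against the line are lower.

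The list of other Myd88-using receptors, which also holds the cytokine Il18, had 7 genes measured. All 7 were called higher than the line in WT tumours and 5 in SCID tumours as deposited. Of all genes, 67.1% and 51.6% were called so. Between hosts 0 of the 7 were called. Under TMM factors 4 were higher in each, and under the panel median 0 were higher and 1 was lower in each. Il1r1, the interleukin-1 receptor, rose from 6.13 in the line by 2.22 (WT) and 2.04 (SCID) on the deposited log2 scale (limma adjusted p = 2.90e-06 and 6.22e-06), and by 1.19 and 1.32 under TMM factors, but differed by -0.39 and 0.04 under the panel median. The share of all genes called lower in SCID was 15.7%, and nothing particular to these lists was tested.

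The genes whose values followed each member most closely over the 11 samples were found by the root-mean-square difference of values centred on each gene's own mean, among 456 candidates. Ccr1 (0.21) and Entpd1 (0.22) were closest to Tlr8, whose own spread on that measure was 1.28. For Tlr1 they were Icam2 (0.22) and Pik3cg (0.23), for Tlr9 Lyn (0.25) and Itgal (0.26), and for Tlr2 Mfge8 (0.20) and Tcf7 (0.22). Stat2 (0.26) and Ifi35 (0.27) were nearest to Tlr3. Bid (0.14) and Pml (0.18) were nearest to Tlr4, and Fadd (0.17) and Ddx58 (0.20) to Myd88. The 2 line samples are among the 11, so likeness includes the difference between line and tumours.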

How the data were processed

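Probes for immune genes were counted in 12 total RNA samples by NanoString nCounter hybridisation, per the labels' protocols. The authors deposited log2 values of 750 genes, and in a further table the linear signal of 749 of them. Taking log2 of that deposited signal gave back the log2 table to within 5.4e-09. Within a sample, 100% of the deposited signal values could be divided by 1 step to give whole numbers (tolerance 0.02), so they were probe counts times 1 factor per sample (0.694 to 1.35), and neither the labels nor the tables name the normalization genes or a background step. Of the columns in the tables, 0 belonged to samples outside the series.

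Groups came from the labels. WT tumours 2 and 3 were averaged. The host comparison used limma 3.58.1 (R 4.3.3, lmFit and eBayes, two-sided), and both tumour groups were set against the line in 1 fit over 3 groups, on the deposited log2 values of all 750 genes, with Benjamini-Hochberg adjustment over all of them. Genes with an adjusted p under 0.05 were called. No filter or pseudocount was applied. A fold written as at least N is a lower bound against the background level, used where a group had no sample above it. Alternatives covered scaling to the panel median, TMM factors computed here, raising values to background, a filter, a pseudocount, the exact permutation test and leaving out each sample. TMM trims extreme genes before it sets a scaling factor.

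The fits were tested on simulated data. Members and gene lists were chosen with earlier results of these data known. Named pathway genes are those called between hosts, up to 4 per list, and the 2 most counted per list, of which 1 is not reported here. For each member above background in at least 6 samples, the 2 most alike genes are given. The shared replicate numbers of WT and SCID tumours did not pair the samples (correlations of deviations from group means -0.41 to 0.24), so no pairing was used. The 10 symbols were current in RefSeq, and the files name no genome build.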

Additional observations from a re-analysis of the deposited data

Results flagged for a closer look

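Tlr6 in SCID tumour 5, at 5.53 on the log2 scale, stood apart from the other 4 SCID tumours, which were between 4.91 and 5.07. Its gap to the nearest of them was 0.752 of the group's range, above Dixon's 95% critical value for 5 samples. It was the 1 value of 20 group and gene combinations tested that did so, and chance alone flags about 1 in 20. All SCID values of Tlr6 were at or below the background level.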

How the results depend on the processing

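The planned count test on recovered counts was not run. Against WT, panel-median scaling turned the SCID difference to 0.39 (Tlr7), 0.12 (Tlr9), 0.11 (Tlr1), 0.43 (Tlr4), 0.55 (Tlr5) and 0.39 (Myd88), and TMM factors turned it to 0.10 (Tlr7), 0.14 (Tlr4), 0.27 (Tlr5) and 0.11 (Myd88). Raising values to background gave -0.15 for Tlr6. Without WT tumours 2 and 3, Tlr2, Tlr5 and Tlr6 were -0.04, 0.067 and -0.01, and without WT tumour 2 and SCID tumour 5 (the titles with other numbers) -0.016, 0.073 and -0.11. Called members numbered 2 lower in the latter (Tlr8, limma adjusted p = 0.0397, and Tlr1, 0.0417), where 162 of 750 genes were lower. The exact permutation test, unadjusted, gave 2. Leaving out WT tumour 1 and SCID tumour 5 together was a setting chosen after seeing the data. It gave 1 member lower (Tlr3, -0.98, limma adjusted p = 0.0378), beside 189 of 750 genes, and Tlr2 at -0.17. Leaving out 1 sample at a time gave 0 to 2 called, all lower, and ranges of -0.10 to 0.13 (Tlr2), -0.15 to 0.070 (Tlr5) and -0.019 to 0.26 (Tlr6).

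Against the line, panel-median scaling gave 1 higher and 8 lower in WT, with Tlr3 -1.84, Tlr7 -0.98, Tlr9 -0.80, Tlr2 -1.39, Tlr5 -2.17, Tlr6 -1.12 and Myd88 -1.52. In SCID it gave 1 higher and 6 lower, with Tlr3 -1.99, Tlr7 -0.59, Tlr9 -0.68, Tlr2 -0.76, Tlr5 -1.61, Tlr6 -0.44 and Myd88 -1.13. TMM factors gave 4 called (3 higher, 1 lower) in each, with Tlr3 -0.27 and Tlr5 -0.60 in WT and Tlr3 -0.71 and Tlr5 -0.33 in SCID. Leaving out 1 sample gave 7 to 8 called (WT) and 6 to 7 (SCID), all higher, with Tlr4 at -0.28 to 0.057 in WT and Tlr3 at -0.19 to 0.22 in SCID. Without WT tumour 1, Tlr3 in WT was 0.98 (adjusted p = 0.0184).

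Over all genes, the split of higher and lower calls as deposited was 1 and 118 (SCID against WT), 503 and 20 (WT against the line) and 387 and 21 (SCID against the line). Panel-median scaling gave 49 and 37, 106 and 483, and 101 and 481, and TMM factors 8 and 56, 249 and 148, and 212 and 119. For SCID against WT, lower calls were 67 without WT tumour 5, 77 of 502 genes under the filter, 61 with values raised to background and 189 without WT tumour 1 and SCID tumour 5. With WT tumours 2 and 3 kept apart, 155 genes were lower, and adding the replicate block gave 160 and 0 members called. A random block on the number in the titles, chosen after seeing the data, had a correlation of 0.04 and called 140 genes lower and 0 members. The causes of these changes were not tested. The 39-count level limits Tlr5, Tlr6 and Tlr7 most.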
